A study of Homo sapiens with 6 samples.

Results

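STIL and the genes that build a new centriole beside an old one were read in RNA-seq of EJ bladder cancer cells. The members are STIL, PLK4, SASS6, CENPJ, CEP152, CEP63, CEP192, CEP135 and RTTN, chosen by name for their place in centriole duplication, and all 9 were found among the 15953 genes of the deposited tables. A centriole is a short barrel of microtubules, and each one is copied once per cell cycle by a cascade of these proteins. Scaffold proteins on the parent centriole bring in the kinase PLK4, PLK4 and STIL place the SASS6 cartwheel that fixes the shape of the new centriole, and further proteins lengthen its wall. The older centriole also becomes the basal body of the primary cilium (PC), the structure that the study examined, and extra centrosomes are a known feature of bladder carcinoma.

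EJ is an established human bladder carcinoma line. Both groups were cells of this line that carried a lentiviral short hairpin RNA, either the negative control (shNC, n = 3 libraries) or a hairpin against STIL (shSTIL, n = 3 libraries). The comparison asks which mRNAs differ once STIL has been lowered for long enough to make a stable line. How many hairpins were used, and their sequences, is not given in the sources used here. The column names of the tables say siRNA where the sample labels say short hairpin RNA. The sources also do not say whether the libraries came from separate cultures. The p-values weigh each difference against the spread between libraries, which may be technical. Estimated reads summed over the 15953 genes, as recovered from the deposited values, were 16352707, 16431243 and 16214772 in shNC replicates 1, 2 and 3. They were 16901634, 16879587 and 16734469 in shSTIL replicates 1, 2 and 3. For shNC replicates 2 and 3 there were no counts to compare these sums with.

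The labelled cell type was checked against marker genes in CPM (the reads of a gene scaled to a common library size) and its log2. Of 16 epithelial and urothelial markers, 14 were in the tables, and their summed level was 1160, 1100 and 1160 CPM in the shNC libraries and 999, 1030 and 1010 CPM in the shSTIL libraries. KRT18, a keratin of simple epithelium, was the most abundant of them, at 9.27 to 9.36 in shNC and 9.25 to 9.30 in shSTIL libraries, whereas KRT5 and GRHL3 had under 3 reads in every library. Only 5 of the 14 reached a mean of 1 log2 CPM, so the sum rests on few genes. CDH1, the adhesion protein E-cadherin, had at most 3 reads in any library and EPCAM, another adhesion protein, at most 21. UPK1B, a uroplakin with at most 20 reads in any library, was called lower (log2 fold change -1.12, limma adjusted p = 0.0035). Its call was not tested under other ways of processing the data. GATA3, a regulator of urothelial differentiation, was low, between -1.50 and -0.54 log2 CPM over the 6 libraries. Of 6 mesenchymal markers, 5 were in the tables, and their summed level was 1610, 1570 and 1590 CPM in shNC and 990, 996 and 1010 CPM in shSTIL libraries, most of it VIM, the intermediate filament vimentin. The only fibroblast marker of 6 in the tables, COL1A1, had 3.68, 2.33 and 3.27 CPM in shNC and 1.87, 1.22 and 1.47 CPM in shSTIL libraries. Leukocyte markers (3 of 6 in the tables, CD68 the most abundant) summed to 12.8, 11.7 and 11.7 CPM against 15.9, 13.8 and 14.7 CPM. Endothelial markers (5 of 5, CDH5 the most abundant, with VWF, KDR and TIE1 under 3 reads in every library) summed to at most 0.981 CPM in any library. The part that the lower mesenchymal sum in shSTIL cells plays in the results was not tested.

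KRT8 fell, from 8.56 ± 0.03 to 7.86 ± 0.05 log2 CPM (SD, n = 3), and KRT7 rose, from 6.50 ± 0.12 to 7.0 ± 0.03, so the keratins of this line did not move in one direction. VIM fell by 0.68 and FN1, the matrix protein fibronectin, fell by 1.19 on the log2 scale, and ZEB2, a repressor of epithelial genes, rose by 0.74 (limma adjusted p at most 1.5e-06). ZEB1 (log2 fold change -0.03, limma adjusted p = 0.745), CDH2 (-0.31, 0.279) and CD68 (0.25, 0.0322) did not pass. CDH2 ran from -0.56 without shSTIL replicate 1 to -0.05 without shSTIL replicate 2. The sign for ZEB1 turned to 0.02 under quantile normalization and to 0.03 without shSTIL replicate 3. CD68 was called higher under quantile normalization (0.32, limma adjusted p = 0.00939) and after the GC content and length correction (0.31, 0.00627). The changes of FOXA1 (-0.53), PPARG (0.26) and COL1A1 (-0.96) were called with all 6 libraries but not in most fits that left one out, where the limma adjusted p reached 0.0326, 0.0342 and 0.0503. FOXA1 lost its call without any one of the 6 libraries. PPARG kept it only without shNC replicate 3 (0.30 at most over these fits), and COL1A1 only without shNC replicate 2 (-0.83 to -1.15). Without the mean-variance trend none of these 3 was called (limma adjusted p 0.0107, 0.0129 and 0.0149), and PPARG was not called with DESeq2 (adjusted p = 0.0164).

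STIL, the targeted gene, spans chr1:47250139-47314147 on the minus strand of GRCh38. It encodes the protein that binds both PLK4 and SASS6 at the site of the new centriole. Its level was 5.98, 6.10 and 6.01 log2 CPM in the shNC libraries and 4.05, 4.06 and 4.01 log2 CPM in the shSTIL libraries. Every shSTIL library lay below every shNC library, with a gap of 1.93 between the groups, so the libraries match their labels. These values rest on 1011 to 1114 reads per shNC library and 272 to 284 reads per shSTIL library. STIL fell by 1.99 on the log2 scale (standard error, SE, 0.05), with an adjusted p of 6.1e-12 in limma. The shSTIL cells kept 25.2% of the control level (95% interval 23.3% to 27.2%). The exact permutation p (two-sided) was 0.1, which is the least that 20 labellings of 6 libraries can give. Of the 7025 genes with a mean between 4 and 7 log2 CPM, 6 fell by at least as much, STIL included.

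The study lists 3 siRNAs against STIL, whose sites are shown because they mark where the transcript was targeted in its transient experiments. Each site lies in coding sequence of the transcript with 18 exons, that of siSTIL#1 in exon 9, that of siSTIL#2 in exon 18 and that of siSTIL#3 in exon 13. Sequences are the mRNA strand read 5′ to 3′ from GENCODE 29 transcripts (GRCh38), on the minus strand of the chromosome, and capitals mark the bases that pair with the seed, bases 2 to 8 of the listed antisense strand.
siSTIL#1, chr1:47293479-47293497: gctgtttgcgaTACATATt
siSTIL#2, chr1:47251879-47251897: gcagtgatctcTGGATTAa
siSTIL#3, chr1:47280657-47280675: ccatcttactgTTCCACAa
The sense strand of siSTIL#1 is listed with 17 bases, so its site of 19 bases was taken from the antisense strand. Whether the stable cells carry any of these as a hairpin is not stated. The 7-base seed words of siSTIL#1 and siSTIL#2 are absent from the 3′ UTRs of all 9 genes, and over 11266 expressed genes they occur in 18.17% and 12.27%. That of siSTIL#3, TTCCACA, occurs once in the 3′ UTR of CEP152 and once in that of CEP192, against 16.39% of the expressed genes with at least 1 such word. A word match of this kind is a description and not a site of action.

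With an adjusted p under 0.01 in limma's fit of all genes, 4 of the 9 members were lower in shSTIL cells (STIL, RTTN, CEP152 and SASS6), beside 23.6% of all genes lower. CEP135 alone was higher, 1 of the 9, beside 23.5% of all genes higher. The other 4, PLK4, CEP63, CENPJ and CEP192, did not pass. STIL was the target of the hairpin, so its fall was fixed by the design. Calls are frequent at the level of these genes: 65.6% of the 7025 genes between 4 and 7 log2 CPM were called, against 55.6% of the members. Of those 7025 genes, 32.0% were lower and 33.7% higher. No overlap between the groups was seen in 7 of the 9 members, STIL included, beside 60.3% of all genes. The median log2 fold change was -0.17 over the members and 0.01 over all genes. In the 6 fits that each left out 1 library, the number of all genes called dropped from 7509 to between 4900 and 5638. The lowest number came without shSTIL replicate 3. The 5 called members passed in all 6 fits.

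**Figure D1:**
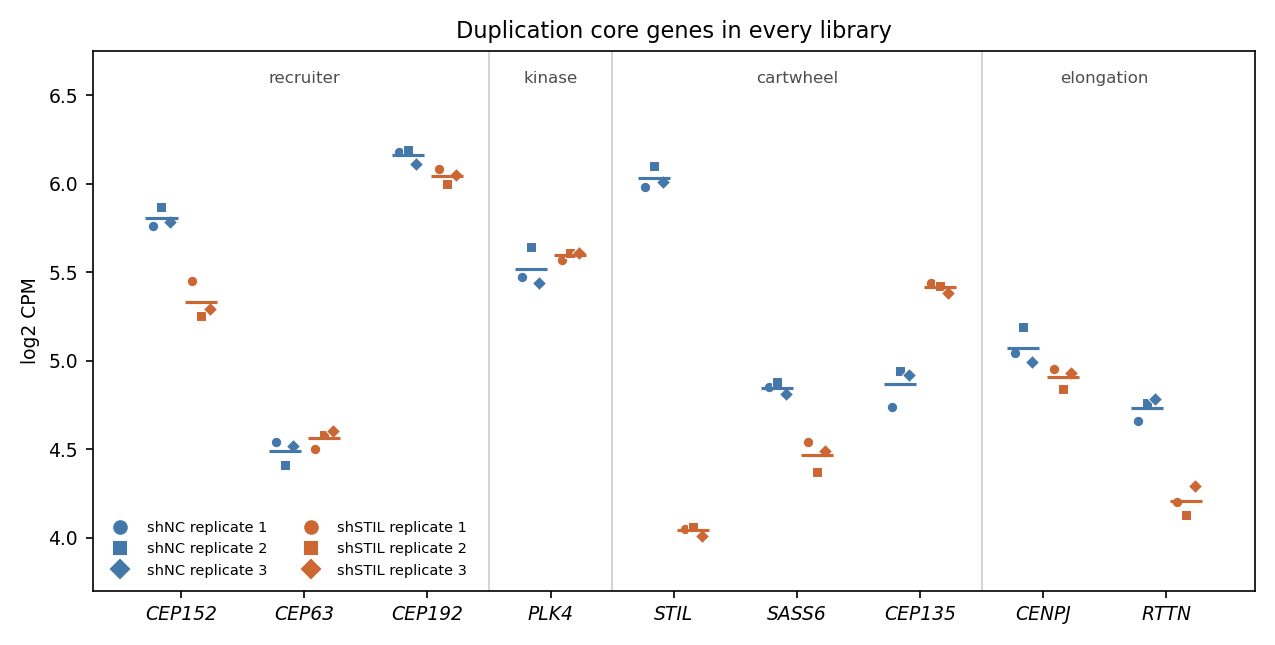
Log2 CPM of the 9 duplication core genes in each of the 6 libraries, ordered by role, with a line at each group's mean (n = 3). STIL drops from about 6 to about 4, CEP135 lies higher in every shSTIL library, and the points of PLK4 and CEP63 overlap between the groups.

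CEP192, CEP152 and CEP63 form the scaffold around the parent centriole. CEP192, on chr18:12991362-13125052, plus strand, recruits PLK4 and also organises the pericentriolar material. It measured 6.18, 6.19 and 6.11 log2 CPM in shNC and 6.08, 6.0 and 6.05 log2 CPM in shSTIL libraries. The groups lay 0.03 apart without overlap, a gap smaller than the SD of 0.04 within each. The log2 fold change of -0.12 (SE 0.04, limma adjusted p = 0.025) did not pass the threshold, and its interval runs from 86.9% to 98.0% of the control level. With trends on GC content and transcript length removed from each library, the log2 fold change of CEP192 was -0.21 and passed (limma adjusted p = 8.0e-05).

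CEP152, on chr15:48712928-48811146, minus strand, hands PLK4 on to the site of the new centriole. Its values were 5.76, 5.87 and 5.78 log2 CPM in shNC libraries and 5.45, 5.25 and 5.29 log2 CPM in shSTIL libraries. All 3 shSTIL libraries were lower, with shSTIL replicate 1 the nearest to the controls, and the groups lay 0.31 apart. CEP152 fell by 0.48 on the log2 scale (SE 0.06, limma adjusted p = 8.3e-06), to 71.9% of its control level. CEP63, on chr3:134485721-134575017, plus strand, is the partner that holds CEP152 at the centriole. It had 4.54, 4.41 and 4.52 log2 CPM in shNC against 4.50, 4.58 and 4.60 log2 CPM in shSTIL libraries. Here the groups overlapped, and the log2 fold change was 0.07 (SE 0.06, limma adjusted p = 0.373) with an interval of 95.5% to 116% of the control level. That of CEP63 was 0.03 without shNC replicate 2 and 0.02 after the GC content and length correction. So of a pair of proteins that act together, the mRNA of one fell and that of the other was not called in either direction. Whether the fold changes of CEP152 and CEP63 differ from each other was not tested.

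PLK4 is the kinase that starts duplication and whose amount limits centriole number. The gene lies on chr4:127880861-127899195, plus strand. Its mRNA stood at 5.47, 5.64 and 5.44 log2 CPM in shNC and 5.57, 5.61 and 5.61 log2 CPM in shSTIL libraries. All shSTIL values fell inside the range of the controls, and shNC replicate 2 was the highest library of all. PLK4 had a log2 fold change of 0.08 (SE 0.05, limma adjusted p = 0.238), and its exact permutation p (two-sided) was 0.4. The 95% interval, 97.4% to 115% of the control level, holds no fall as large as that of CEP152 or SASS6. The log2 fold change of PLK4 was 0.14 without shNC replicate 2, 0.04 without shNC replicate 3 and 0.03 after the GC content and length correction.

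In the cartwheel, SASS6 forms the central hub and CEP135 connects the hub and spokes to the microtubule wall. SASS6, on chr1:100083563-100132955, minus strand, had 4.85, 4.88 and 4.81 log2 CPM in shNC libraries and 4.54, 4.37 and 4.49 log2 CPM in shSTIL libraries. Every shSTIL library was lower, by at least 0.27. SASS6 fell by 0.38 (SE 0.06, limma adjusted p = 1.4e-04) to 76.8% of the control level. Tested against a change of at least 1.2-fold with limma treat, SASS6 no longer passed (adjusted p = 0.129), whereas the other 4 called members did.

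CEP135, on chr4:55948871-56033363, plus strand, moved the other way. It had 4.74, 4.94 and 4.92 log2 CPM in shNC libraries and 5.44, 5.42 and 5.38 log2 CPM in shSTIL libraries. The 3 shSTIL values were tightly grouped (SD 0.03) and all lay above the controls, with 0.44 between the groups. CEP135 rose by 0.54 on the log2 scale (SE 0.06, limma adjusted p = 3.3e-06), to 146% of the control level, with 427 to 499 reads per shNC library and 707 to 739 per shSTIL library. Among genes between 4 and 7 log2 CPM, 8.65% rose by at least as much.

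CENPJ and RTTN both bind STIL and act after the cartwheel, when the new centriole grows. CENPJ, on chr13:24882284-24922889, minus strand, adds tubulin to the wall. Its log2 CPM was 5.04, 5.19 and 4.99 in shNC and 4.95, 4.84 and 4.93 in shSTIL libraries. The groups missed each other by 0.04, less than the SD within either group. CENPJ did not pass (log2 fold change -0.17, SE 0.06, limma adjusted p = 0.0339), with an interval of 81.0% to 97.7% of control, but it passed after the GC content and length correction (-0.22, limma adjusted p = 0.00201). Without shNC replicate 2 the log2 fold change of CENPJ was -0.11.

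RTTN, on chr18:70003031-70205945, minus strand, is needed for the wall to reach full length. It measured 4.66, 4.76 and 4.78 log2 CPM in the shNC libraries and 4.20, 4.13 and 4.29 log2 CPM in the shSTIL libraries. No shSTIL library came within 0.37 of a control. RTTN fell by 0.53 (SE 0.07, limma adjusted p = 1.3e-05), which left 69.4% of the control level, the lowest share among the members after STIL. Of the genes between 4 and 7 log2 CPM, 11.0% fell by at least as much, and for CEP152 and SASS6 the shares were 13.2% and 18.1%. STIL therefore stood far out among genes of its level, and the falls of the other 3 did not.

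**Figure D2:**
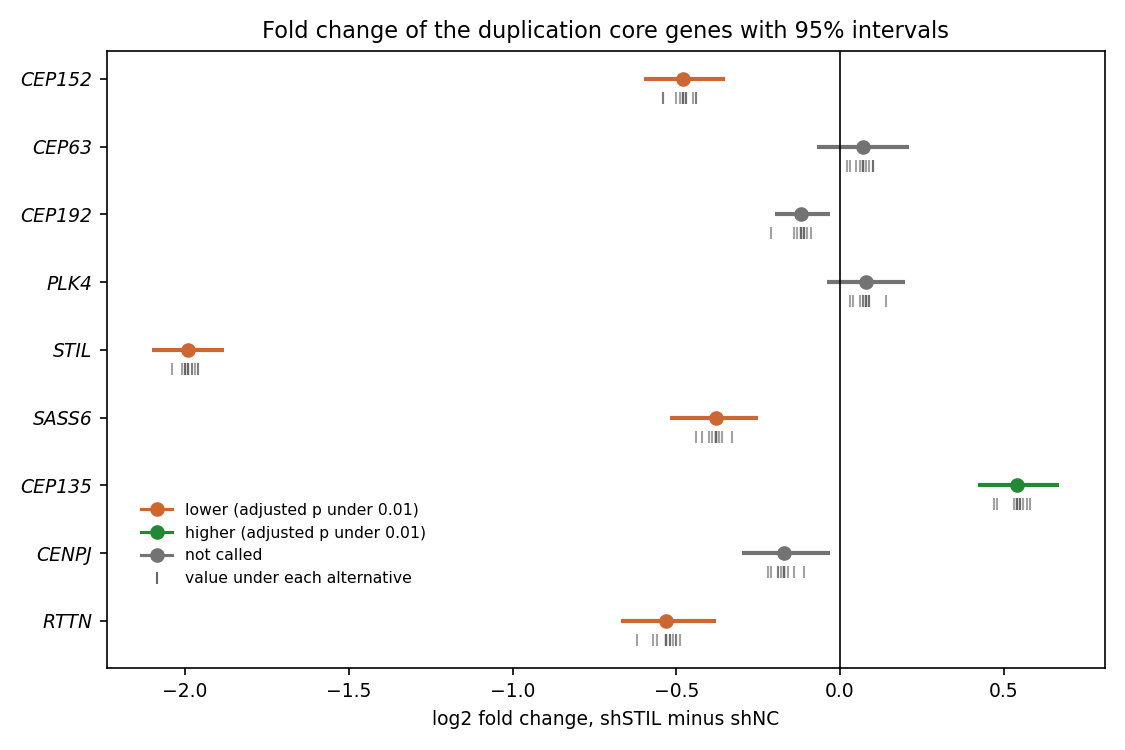
Log2 fold change (shSTIL minus shNC) of each gene from limma with its 95% interval, and under each bar the value from each of 18 other ways of processing the data. STIL, SASS6, CEP152 and RTTN lie below 0 and CEP135 above 0 in all of them, while the intervals of PLK4 and CEP63 cross 0. Some of these ways change only the test and leave the fold change as it was.

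Levels were compared between genes as CPM per kilobase of the longest coding transcript. In shNC cells STIL had the highest mean, 12.5 ± 0.528 CPM per kilobase (SD, n = 3), and PLK4 followed at 11.9 ± 0.923. The values of these 2 overlapped between libraries, although STIL lay above PLK4 within each shNC library. CEP152 (9.90 ± 0.397) lay above CEP192 (8.96 ± 0.249) in every shNC library. SASS6 (7.38 ± 0.178) and CENPJ (6.70 ± 0.508) overlapped in their values. CEP135 (5.24 ± 0.395), CEP63 (3.97 ± 0.202) and RTTN (3.27 ± 0.145) closed the order without overlap between neighbours.

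In shSTIL cells the order per kilobase was different. PLK4 came first at 12.6 ± 0.184 CPM per kilobase and CEP192 second at 8.27 ± 0.221. CEP135 (7.63 ± 0.140) moved up from place 7 to place 3, and its values overlapped those of CEP152 (7.12 ± 0.551). CENPJ (5.95 ± 0.236) and SASS6 (5.67 ± 0.346) overlapped again, CEP63 had 4.17 ± 0.146, and STIL dropped from place 1 to place 8 at 3.13 ± 0.0525, above RTTN at 2.27 ± 0.124. With the mean length of the coding transcripts in place of the longest, STIL again moved from place 1 to place 8, and PLK4 and RTTN kept their places too. CEP63, which has 12 coding transcripts, rose to 12.2 CPM per kilobase in shNC and 12.8 in shSTIL cells, from place 8 to 4 and from place 7 to 2. SASS6, which has 1, kept its values and dropped from place 5 to 8 in shNC and from place 6 to 7 in shSTIL cells. CEP135 had place 4 instead of 3 in shSTIL cells. In shNC cells CEP63 then shared place 4 with CEP192, both at 12.2 CPM per kilobase. With this tie, only the places of SASS6 and CEP63 depend on the length taken in shNC cells. In shSTIL cells those of the 6 members other than STIL, PLK4 and RTTN do.

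**Figure D3:**
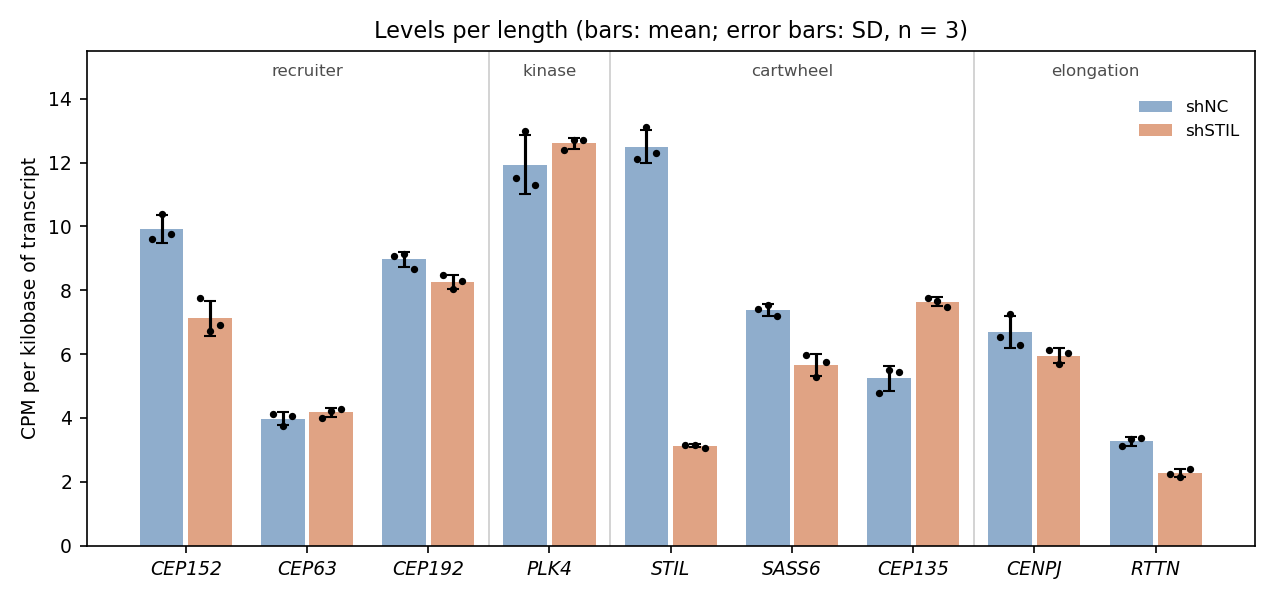
Level of each gene in CPM per kilobase of its longest coding transcript, as mean and SD of 3 libraries per group with each library as a point. PLK4 and STIL stand near 12 in shNC cells, and in shSTIL cells STIL drops to 3.13 while PLK4 is at 12.6.

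The balance between partners can be read from the same scale. STIL had 1.05, 1.01 and 1.09 times the CPM per kilobase of PLK4 in shNC libraries and 0.255, 0.249 and 0.242 times in shSTIL libraries. Relative to SASS6, STIL went from 1.63, 1.73 and 1.71 times to 0.529, 0.597 and 0.533 times. STIL mRNA thus went from near parity with the kinase, and from an excess over the cartwheel protein, to a deficit. With mean coding length, STIL had 19 beside 7.38 CPM per kilobase of SASS6 in shNC and 4.76 beside 5.67 in shSTIL cells. Beside PLK4, STIL then had 19 against 15.9 in shNC and 4.76 against 16.8 in shSTIL cells. The near parity of STIL and PLK4 in shNC cells thus depends on the length taken. The ratio of CEP135 to SASS6 was 0.645, 0.730 and 0.756 in shNC and 1.30, 1.45 and 1.30 in shSTIL libraries. Which of these 2 cartwheel mRNAs was higher in shNC cells depends on the length, since with mean coding length CEP135 had 7.62 CPM per kilobase beside 7.38 for SASS6 there, and 11.1 beside 5.67 in shSTIL cells. CEP152 had 2.33, 2.77 and 2.41 times the level of CEP63 in shNC and 1.93, 1.59 and 1.61 times in shSTIL libraries. With mean coding length it had 13.7 beside 12.2 CPM per kilobase in shNC and 9.84 beside 12.8 in shSTIL cells, so there the direction in shSTIL cells turned. Summed over the 8 genes other than STIL, the level was 56.2, 59.8 and 56.0 CPM per kilobase in shNC and 54.7, 52.4 and 53.8 in shSTIL libraries. STIL made up 17.7% to 18% of the sum of all 9 in shNC and 5.39% to 5.68% in shSTIL libraries.

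Promoters are shown because STIL, SASS6, CEP152 and RTTN moved one way and CEP135 the other, and sequence is one thing the choice of members did not use. The 250 bases before each start came from RefSeq (GRCh38.p14), which had all 9 genes, CENPJ under the name CPAP, with 3 starts for PLK4, 2 for CEP63 and 1 for each other gene. Motifs searched on both strands were E2F words (TTTCCCGC or TTTCGCGC or TTTGCCGC or TTTGGCGC), CHR words (TTTGAA or TTTAAA or TTCGAA) and CCAAT, which are known from promoters of cell cycle genes. Capitals mark matches on either strand in the 5 called members, read 5′ to 3′ on the strand of the gene.
STIL, chr1:47314148-47314397, minus strand: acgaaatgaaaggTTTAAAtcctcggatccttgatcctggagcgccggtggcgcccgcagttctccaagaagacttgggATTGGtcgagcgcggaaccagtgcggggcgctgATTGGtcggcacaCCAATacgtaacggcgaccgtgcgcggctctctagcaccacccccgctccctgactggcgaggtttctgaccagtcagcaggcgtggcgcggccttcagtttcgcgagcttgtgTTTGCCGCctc
SASS6, chr1:100132931-100133180, minus strand: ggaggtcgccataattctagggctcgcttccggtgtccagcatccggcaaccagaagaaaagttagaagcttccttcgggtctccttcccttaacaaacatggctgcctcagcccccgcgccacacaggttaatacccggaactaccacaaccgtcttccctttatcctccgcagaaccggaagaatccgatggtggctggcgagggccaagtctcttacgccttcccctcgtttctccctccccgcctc
CEP152, chr15:48811070-48811319, minus strand: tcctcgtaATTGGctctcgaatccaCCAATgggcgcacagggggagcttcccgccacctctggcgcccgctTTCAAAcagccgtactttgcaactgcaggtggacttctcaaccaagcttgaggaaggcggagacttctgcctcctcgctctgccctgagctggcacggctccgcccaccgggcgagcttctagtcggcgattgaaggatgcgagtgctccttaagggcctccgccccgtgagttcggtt
RTTN, chr18:70205688-70205937, minus strand: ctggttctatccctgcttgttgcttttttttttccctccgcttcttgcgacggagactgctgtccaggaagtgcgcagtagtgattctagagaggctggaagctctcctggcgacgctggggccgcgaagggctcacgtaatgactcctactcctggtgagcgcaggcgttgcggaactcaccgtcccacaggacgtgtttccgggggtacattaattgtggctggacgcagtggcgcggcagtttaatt
CEP135, chr4:55948695-55948944, plus strand: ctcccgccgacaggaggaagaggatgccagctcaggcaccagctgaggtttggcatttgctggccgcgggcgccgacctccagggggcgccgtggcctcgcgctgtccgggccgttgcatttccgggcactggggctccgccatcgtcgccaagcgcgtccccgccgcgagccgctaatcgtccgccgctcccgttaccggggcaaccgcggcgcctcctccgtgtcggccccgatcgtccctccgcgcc
The STIL window holds the E2F word TTTGCCGC 11 bases before the start, the CHR word TTTAAA and CCAAT in 3 places. CEP152 has a CHR word and 2 CCAAT words, and SASS6, RTTN and CEP135 have no match. Among members that were not called, CEP192 has 1 CHR and 2 CCAAT words, PLK4 has 1 CCAAT before the last of its starts, CEP63 has 1 E2F word before its first start, and CENPJ has none. Of all 35116 windows, 2.8% hold an E2F word, 22.8% a CHR word and 32.0% CCAAT. The words are thus found in called and uncalled members alike, and their absence says only that these letters are not in these windows.

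SASS6 and CEP63 each have a coding gene that starts close by on the opposite strand, and these 2 neighbours were looked up after the members' values were seen. TRMT13, a tRNA methyltransferase gene, starts 195 bases from SASS6. It had 3.73, 3.99 and 3.83 log2 CPM in shNC and 4.62, 4.61 and 4.52 log2 CPM in shSTIL libraries. TRMT13 thus rose in every shSTIL library (log2 fold change 0.73, SE 0.08, limma adjusted p = 2.9e-06) while SASS6 fell. ANAPC13, a subunit of the anaphase-promoting complex, overlaps the first 996 bases of CEP63. Its log2 CPM was 5.50, 5.33 and 5.48 in shNC and 6.07, 6.26 and 6.22 in shSTIL libraries, a rise of 0.75 (SE 0.06, limma adjusted p = 1.2e-07). The sources do not state whether counting used the strand, so reads of CEP63 and ANAPC13 within the shared bases cannot be told apart.

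Genes beside STIL and relatives of the members were also read. Of 11 neighbours of STIL on chromosome 1, 7 were in the tables and 1 was called: CMPK1, a nucleotide kinase gene, fell from 6.87 ± 0.08 to 6.65 ± 0.06 log2 CPM (SD, n = 3). The share called was 14.3%, beside 47.1% of all genes, and only 2 of these 7 neighbours reached a mean of 1 log2 CPM. The log2 fold change of CMPK1 was -0.21 (limma adjusted p = 0.00138), a call that ended when any 1 of the 6 libraries was left out (limma adjusted p 0.0221 to 0.0532, log2 fold change -0.24 to -0.16) and without the mean-variance trend (0.0332). Of 7 paralogs, 5 were in the tables. PLK1, the mitotic relative of PLK4, fell by 0.24 (limma adjusted p = 6.6e-05), and its call ended without shSTIL replicate 1, 2 or 3 (limma adjusted p up to 0.0107, log2 fold change -0.28 to -0.22). PLK2, a stress-induced relative, rose by 0.43, from 8.25 ± 0.01 to 8.68 ± 0.03 log2 CPM. PLK3 (-0.23, limma adjusted p = 0.0481) and TSGA10, a relative of CEP135 (-0.03, 0.877), did not pass. PLK3 had -0.14 without shNC replicate 1 and after the GC content and length correction. TSGA10 had 0.01 under quantile normalization, 0.04 without shNC replicate 2 and 0.08 without shSTIL replicate 3.

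Genes that act next to the core in the same organelle were called in both directions, as were genes as a whole. Of 25 genes of centriole elongation and maturation, 11 were lower, 4 higher and 10 not called, with a median log2 fold change of -0.08 beside 0.01 over all genes. The share called was 60%, beside 47.1% of all genes and 65.6% of those between 4 and 7 log2 CPM. The largest falls were in WDR90 (-0.90), a protein of the centriole wall, CETN2 (-0.77), a centrin of the distal lumen, and CCP110 (-0.71), which caps the growing end. TUBE1, the epsilon-tubulin needed for stable triplet microtubules, rose from 4.77 ± 0.04 to 5.88 ± 0.08 log2 CPM (SD, n = 3), a rise of 1.11 (limma adjusted p = 9.1e-10). CEP350 (0.42) and CEP120 (0.36), a partner of CENPJ in elongation, also rose. CEP350 lost its call without shNC replicate 1 or 3 or shSTIL replicate 1 or 3 (limma adjusted p up to 0.021, log2 fold change 0.36 to 0.48), and the number called higher was 2 without shNC replicate 1, shNC replicate 3 or shSTIL replicate 3.

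Among 14 centrosome partners and satellite genes, 7 were lower, 1 higher and 6 not called, with a median of -0.15. The share called was 57.1%, beside 47.1% of all genes and 65.6% of those between 4 and 7 log2 CPM. TUBG1, the gamma-tubulin that nucleates microtubules, fell by 1.00, from 7.88 ± 0.05 to 6.88 ± 0.02 log2 CPM (SD, n = 3). CEP131, a satellite protein, fell by 0.93 and WDR62, a spindle pole protein, by 0.67. AKAP9, a scaffold of the centrosome and Golgi, rose by 0.44 (limma adjusted p at most 3.8e-06 for these 4 genes).

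Another list was drawn up around the control of PLK4, STIL and SASS6 protein and the licensing of centrioles for a new round. Of its 16 genes, 10 were lower, 2 higher and 4 not called, with a median of -0.29. The share called was 75%, beside 47.1% of all genes and 65.6% of those between 4 and 7 log2 CPM. Among those lower, CDK1 and CDC20 are also counted in the G2/M list below, and PLK1 among the paralogs. CCNF, the F-box protein cyclin F, fell by 0.91, ESPL1, the protease separase that helps to free the new centriole from the old one, by 0.66, and CCNB1, the cyclin whose kinase complex competes with PLK4 for STIL, by 0.64 (limma adjusted p at most 9.4e-09). BTRC, the F-box protein that marks PLK4 for destruction, rose from 5.37 ± 0.07 to 5.80 ± 0.05 log2 CPM (SD, n = 3; log2 fold change 0.43, limma adjusted p = 5.4e-06). FBXW11, also in this list, was called lower (log2 fold change -0.36, limma adjusted p = 9.8e-06). USP9X, a deubiquitinase, rose by 0.13 (limma adjusted p = 0.00355), a log2 fold change that turned to -0.0028 after the GC content and length correction. Its call also ended in 5 of 6 fits, all except the one without shNC replicate 2 (limma adjusted p up to 0.0322, log2 fold change 0.11 to 0.15), and in these 5 fits 1 gene of the list was higher. Without the mean-variance trend USP9X was not called either (limma adjusted p = 0.0413).

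Cells sense a wrong number of centrosomes in separate ways, and both sets of genes were read. Of 8 surveillance genes, 5 were lower, 1 higher and 2 not called, with a median of -0.37. The share called was 75%, beside 47.1% of all genes and 65.6% of those between 4 and 7 log2 CPM. In the PIDDosome, which responds to extra centrosomes, PIDD1 fell from 5.36 ± 0.14 to 4.22 ± 0.08 log2 CPM (SD, n = 3), a drop of 1.14 (limma adjusted p = 2.2e-08). The protease gene CASP2 fell by 0.71 and MDM2, whose protein CASP2 cleaves, by 0.93. ANKRD26, the centriolar anchor of PIDD1, fell by 0.48 (limma adjusted p = 0.00243), but its call ended without any 1 of the 6 libraries (limma adjusted p 0.0152 to 0.0597, log2 fold change -0.57 to -0.39), without the mean-variance trend (0.0183) and under quantile normalization (0.0112). CRADD, the adaptor, was not called (-0.05, limma adjusted p = 0.812), and its sign turned under quantile normalization (0.0049), without shNC replicate 3 (0.02) and without shSTIL replicate 1 (0.0046).

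Other genes of the list act when cells stop dividing after centrosome loss. CDKN1A, a cell cycle inhibitor, rose from 8.38 ± 0.03 to 8.59 ± 0.02 log2 CPM (SD, n = 3), by 0.22 (limma adjusted p = 3.7e-05). USP28 fell by 0.26 (limma adjusted p = 5.7e-04), a call kept only without shSTIL replicate 1 among the 6 fits that left out a library (limma adjusted p up to 0.0295, log2 fold change -0.30 to -0.22), and lost without the mean-variance trend (0.0151). TP53BP1 was not called (-0.12, limma adjusted p = 0.0121) but passed without shNC replicate 1 (limma adjusted p = 0.00809) and among genes with a mean of at least 1 log2 CPM (0.00898). After the GC content and length correction its log2 fold change was -0.23 and passed (limma adjusted p = 1.3e-06). The number of surveillance genes lower was 3 without shNC replicate 2 or 3 or shSTIL replicate 2 or 3.

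Members of the core are made at particular times of the cell cycle, so cycle genes were read beside them. Of 43 S phase genes, 42 were lower and 0 higher by limma, with a median log2 fold change of -0.97. Examples are CCNE2, the cyclin of the start of S phase (-2.80), RRM2 (-2.09), which supplies deoxynucleotides, and MCM4 (-1.85), a helicase subunit. Of 54 G2/M genes, 39 were lower and 3 higher, with a median of -0.34. The shares called were 97.7% for S phase and 77.8% for G2/M, beside 47.1% of all genes. NUSAP1 (-1.28) and DLGAP5 (-1.15), both spindle proteins, and the tubulin TUBB4B (-1.06) had the largest falls, and RANGAP1 (0.58), CBX5 (0.32) and G2E3 (0.21) rose. After the GC content and length correction CBX5 was at 0.20 and kept its call. The call of G2E3 ended in 5 of 6 fits, all except the one without shSTIL replicate 3 (limma adjusted p up to 0.0696, log2 fold change 0.18 to 0.26). It also ended without the mean-variance trend (limma adjusted p = 0.0357) and after the GC content and length correction (0.13, 0.0246). In bulk RNA, fewer cells in a phase and less RNA per cell cannot be told apart. The part of the lower cycle genes in the falls of SASS6, CEP152 and RTTN was not tested.

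Regulators that act on cycle promoters were mixed. Of 19 E2F, RB-like and MuvB genes, 9 were lower and 5 higher, with a median of 0.02. The share called was 73.7%, beside 47.1% of all genes and 65.6% of those between 4 and 7 log2 CPM. E2F2 (-1.48), E2F8 (-1.28) and E2F7 (-1.13) fell, and E2F5 (0.66) rose (limma adjusted p at most 2.1e-05). E2F8 is also counted among the S phase genes. LIN52 (0.42) and LIN9 (0.26), subunits of the MuvB core, were also called higher. Of the other subunits of this core, RBBP4 was called lower (-0.60, limma adjusted p = 2.2e-09), and LIN37 (0.02) and LIN54 (0.08) were not called. LIN52 lost its call without shNC replicate 1 or 2 or shSTIL replicate 2 or 3 (limma adjusted p up to 0.0274, log2 fold change 0.35 to 0.48). LIN9 kept it only without shNC replicate 2 (limma adjusted p up to 0.0548 otherwise, log2 fold change 0.21 to 0.32), and lost it without the mean-variance trend (0.0222) and with DESeq2 (adjusted p = 0.0185). The number called higher was 3 without shNC replicate 1, shSTIL replicate 2 or shSTIL replicate 3.

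**Figure D4:**
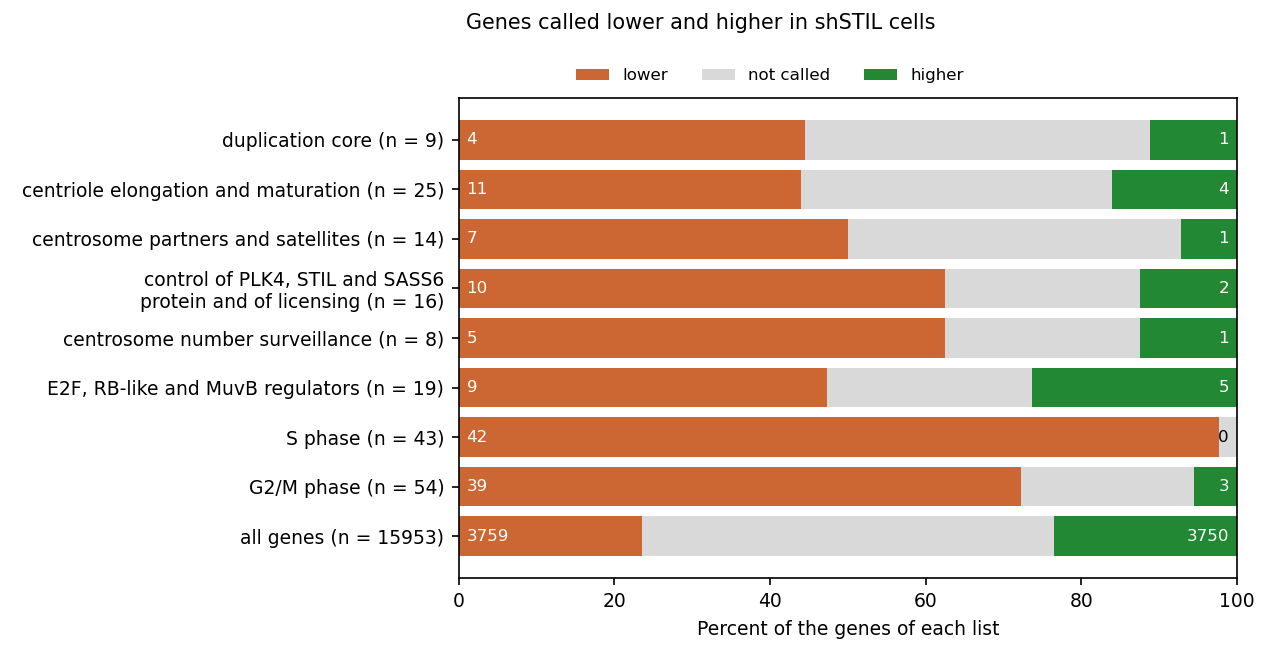
Share of each list of genes called lower, not called and called higher in shSTIL cells (limma adjusted p under 0.01), with the numbers of genes at the ends of the bars. The duplication core has 4 lower and 1 higher of 9, the S phase list 42 lower of 43, and all genes 3759 lower and 3750 higher of 15953.

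The genes whose values were most like those of STIL were found by the Euclidean distance over the 6 libraries, after each gene was set relative to its shNC mean, among 9942 genes with a mean of at least 3 log2 CPM. XPO7, a nuclear transport receptor, was nearest (distance 0.10), with 6.71, 6.78 and 6.82 log2 CPM in shNC and 4.82, 4.78 and 4.78 log2 CPM in shSTIL libraries. ALDH1A3, a retinaldehyde dehydrogenase (0.11), DHX9, an RNA helicase (0.12), FAM111B (0.14) and RRM2 (0.21) came next. Their log2 fold changes ran from -2.09 for RRM2 to -1.94 for ALDH1A3. No member was near: the distance to STIL was 2.54 for RTTN, 2.62 for CEP152, 2.79 for SASS6 and 4.39 for CEP135. By Pearson correlation, which ignores the size of the change, 840 genes reached 0.99 with STIL, and 0 of its first 5 were among the 5 nearest by distance.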

How the data were processed

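Reads from a BGISEQ-500 were filtered by the authors (SOAPnuke), aligned to transcripts (Bowtie2) and assigned to genes by RSEM, which can share a read between similar transcripts. The submitters' processing notes name hg38 and limma. The deposited tables hold log2 CPM, computed by the authors, of 15953 genes in 6 libraries, and estimated counts of 15957 genes in 4 of them. Groups came from the sample labels.

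Differences (shSTIL minus shNC) were fitted to the deposited log2 CPM by limma 3.58.1 (R 4.3.3; lmFit, eBayes with trend) over all genes. Calls need a Benjamini-Hochberg adjusted p under 0.01, which the paper's methods also use. Log2 CPM includes a prior count of 2, so fold changes of low genes are understated. Reads recovered from log2 CPM (87.5% to 87.8% within 0.01 of a whole number per library) could be compared with deposited estimated counts in 4 libraries. There they differed by at most 0.000494 reads. They were rounded for edgeR 4.0.16 and DESeq2 1.42.0, run as alternatives. The design had assumed log2 CPM and reads that could be recovered from it, which the files bear out apart from reads that are not whole. The fits were also run on simulated data in which far fewer genes changed than were called here. That run cannot show how reliable the calls here are. Lengths, 3′ UTRs and positions came from GENCODE 29 (GRCh38), where 99.2% of genes had a coding transcript, and promoters from RefSeq.

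The members and lists were chosen with earlier results of these data known. Of genes known for centrosome surveillance, 1 further gene is not reported here. Named genes are all members; from each other list, among genes with a mean of at least 1 log2 CPM, up to 3 largest rises and 3 largest falls among called genes and every gene of lists of under 10; and the 5 genes nearest to STIL. Outside this rule, some markers are named for the cell type check, TRMT13 and ANAPC13 as neighbours of members, and RBBP4, LIN37 and LIN54 as subunits of a complex. FBXW11 is named beside BTRC, and CDK1 and CDC20 as genes that lists share. The alternatives were a fit without the trend, quantile normalization, median centring, a mean log2 CPM of at least 1, prior counts of 0.25 and 5, edgeR, DESeq2, a replicate block, a GC content and length correction, each library left out, an adjusted p under 0.05, limma treat against 1.2-fold, and other choices of length and of likeness.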

Additional observations from a re-analysis of the deposited data

How the results depend on the processing

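STIL kept its direction and call under all 18 alternatives, with a log2 fold change from -2.04 to -1.96 (adjusted p at most 1.5e-04), as did RTTN (-0.62 to -0.49), CEP152 (-0.54 to -0.44) and CEP135 (0.47 to 0.58). SASS6 (-0.44 to -0.33) lost its call only with limma treat. Limma treat, the fit without the trend and an adjusted p under 0.05 change only the test, not the fold change. The same holds for the replicate block and for a mean log2 CPM of at least 1. No member changed sign: PLK4 ran from 0.03 to 0.14 and CEP63 from 0.02 to 0.10, never called, while CENPJ (-0.22 to -0.11) and CEP192 (-0.21 to -0.09) were called at an adjusted p under 0.05 and with GC content and length corrected. The number of members lower was thus 3 to 6 and the number higher 1 throughout.

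The number of all genes called was 3317 with limma treat against 1.2-fold, and 4900 to 5638 with 1 library left out, where the fits have fewer libraries. The sign turned for CRADD (0.0049 under quantile normalization; -0.14 to 0.02, with 0.0046 between, with a library left out), TSGA10 (0.01; -0.10 to 0.08, with 0.04 between), ZEB1 (0.02; -0.07 to 0.03) and USP9X (-0.0028 after the GC content and length correction), of which only USP9X had been called; the cause was not tested. Limma treat left 1 gene higher in the elongation list and 4 lower among centrosome partners. It left 6 lower and 0 higher in the list on PLK4, STIL and SASS6 protein and licensing. In surveillance it left 3 lower and 0 higher. Among E2F, RB-like and MuvB genes it left 1 higher, in G2/M 1 higher, and among paralogs and neighbours of STIL 0 lower. Of named genes beside the members that were run, limma treat ended the calls of ANKRD26, BTRC, CBX5, CDKN1A, CEP120, CEP350, CMPK1, COL1A1, FOXA1, G2E3, LIN52, LIN9, PLK1, PPARG, USP28 and USP9X. The called genes UPK1B, RBBP4, FBXW11, CDK1 and CDC20 were not run under the alternatives. Without the trend, 3 surveillance genes and 0 neighbours of STIL were lower. In the list on PLK4, STIL and SASS6 protein and licensing, 1 gene was then higher. At an adjusted p under 0.05, CD68, PLK3 and TP53BP1 were also called, 2 paralogs were lower and 1 neighbour of STIL was higher. That neighbour had at most 6 reads in any library.

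With the replicate block, the number of all genes called was 6898, 4 members were lower and 1 higher, and STIL was at -1.99. G2E3, LIN9 and USP9X were not called in this fit (limma adjusted p 0.0127, 0.0116 and 0.013). Thus 1 gene of the list on PLK4, STIL and SASS6 protein and licensing was higher. No other gene run under the alternatives differed in its call. Deviations of libraries with the same replicate number correlated at -0.152, -0.067 and -0.045 across 9943 genes, and no library correlated best with its own number, so replicate numbers carry no visible pairing. The members had 272 or more reads per library and a median pooled SD of 0.072, against 0.062 for genes of similar level. How much of this spread comes from the number of reads was not tested.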
